A study of Homo sapiens with 6 samples.

Results

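Epithelial-mesenchymal transition (EMT) is driven by a small group of transcription factors, and 9 of their genes were examined here in HCCLM3 cells with and without overexpression of the long non-coding RNA LINC00862. The 9 genes are the zinc finger and homeodomain repressors ZEB1 and ZEB2, the Snail family members SNAI1, SNAI2 and SNAI3, the basic helix-loop-helix (bHLH) factors TWIST1, TWIST2 and TCF4, and the homeobox gene PRRX1. They were taken by name from the 35856 genes of the deposited table, and each of the 9 was present. The rule itself uses no measured value, but the 9 names were chosen with earlier results of these data known. HCCLM3 is an established human hepatocellular carcinoma (HCC) line with a high metastatic potential. Polyadenylated RNA was sequenced from 3 NC libraries, the control, and from 3 LINC00862 libraries. The latter were made from cells transfected with a pcDNA3.1 vector that carries LINC00862. NC is taken here as cells with an empty vector, the control that the paper names for its stably transfected HCCLM3 cells. On that reading both groups carry a vector. The sources do not say whether the 3 libraries of a group came from separate cultures, so p-values measure the spread between these libraries only.

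ZEB and Snail proteins bind E-box sequences in the promoters of epithelial genes such as CDH1 and recruit corepressors that silence them. TWIST proteins act as dimers with E proteins such as TCF3, TCF12 and TCF4, and the ID proteins block such dimers. ZEB1 and ZEB2 are held down by the microRNAs of the miR-200 family, whose genes they repress in turn, and in the liver these factors are known from the spread of HCC and from the mesenchymal phenotype of its cells.

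The seeds of the miR-200 family and their matches in ZEB1 and ZEB2 are shown first, because the host transcript of a pair of these microRNAs was among the genes that separated the groups. Below are the mature human sequences from RefSeq (GRCh38.p14), 5′ to 3′, with the seed (bases 2 to 8) in capitals.
hsa-miR-200b-3p: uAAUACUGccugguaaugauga
hsa-miR-200c-3p: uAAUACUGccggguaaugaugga
hsa-miR-429: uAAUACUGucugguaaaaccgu
hsa-miR-200a-3p: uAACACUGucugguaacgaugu
hsa-miR-141-3p: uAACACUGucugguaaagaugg
The seeds fall into 2 classes, AAUACUG in miR-200b-3p, miR-200c-3p and miR-429, and AACACUG in miR-200a-3p and miR-141-3p.

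A search of the longest 3′ UTR per gene (GENCODE 29, transcripts of the deposited table) for the reverse complement of each seed gave 6 matches CAGTATT and 3 matches CAGTGTT in ZEB1 (2549 nucleotides), and 5 and 4 matches in ZEB2 (5370 nucleotides). Among 16735 protein-coding genes searched, 17.1% held at least 1 CAGTATT and 19.4% at least 1 CAGTGTT, and 29.9% held either of them. Both ZEB genes had 9 matches in all, a number reached by 5 of the 16735 genes, ZEB1 and ZEB2 included. The median length searched was 1190 nucleotides per gene, below that of either ZEB gene, and these numbers are not adjusted for length. The first match of each class after the stop codon is printed with 8 bases on each side, read on the strand of the gene, with the match in capitals.
ZEB1, CAGTATT, chr10:31527625-31527647, plus strand: tatcttatCAGTATTatcactct
ZEB1, CAGTGTT, chr10:31528038-31528060, plus strand: atcagaatCAGTGTTtgtgattg
ZEB2, CAGTATT, chr2:144389045-144389067, minus strand: ccatacatCAGTATTtttattat
ZEB2, CAGTGTT, chr2:144389229-144389251, minus strand: attttgtaCAGTGTTaaggccta
TWIST1, TWIST2, SNAI1, SNAI3 and PRRX1 held 0 matches of either class, SNAI2 held 1 of the first class, and TCF4 held 1 and 2. These matches describe the letters of the reference and were not measured here.

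Adjusted p-values here come from the quasi-likelihood test of edgeR, corrected by the Benjamini-Hochberg method over all genes tested. The libraries held 58241123 to 68229070 counts, and 20741 genes passed edgeR's filter on low counts, all 9 EMT transcription factors among them. LINC00862 itself had 11, 21 and 6 counts in the NC libraries and 145, 121 and 76 in the LINC00862 libraries, which goes with the labels. Its log2 fold change was 3.22 (SE 0.53, edgeR adjusted p = 0.000583). The groups differed across much of the transcriptome, since 64.2% of the tested genes had an adjusted p under 0.05, 34.4% higher and 29.8% lower in LINC00862, and the log2 fold changes of these genes had a median of 0.11. On the FPKM scale, which divides the fragments of a gene by its length and by the depth of the library, 71.1% of these genes had no overlap between NC and LINC00862. On this scale the LINC00862 gene had a mean of 0.0507 in NC and 0.449 in LINC00862, under the medians of 1.51 and 1.55 over the tested genes. The markers of the labelled cell type also differed. Of 10 tested hepatocyte and hepatoma markers, 8 were higher and 2 lower in LINC00862, and the summed FPKM of all 13 listed was 4.40 to 4.67 in NC against 809 to 925 in LINC00862. Most of the LINC00862 sum came from the fibrinogen gene FGB (mean FPKM 550, against 1.75 in NC) and the urea cycle gene CPS1 (305, with 791 to 1095 counts in NC and 199435 to 257869 in LINC00862), followed by the transferrin gene TF (15.5, against 0.0369 in NC). Albumin (ALB) had 0, 0 and 7 counts in NC and 423, 394 and 282 in LINC00862, and TTR had 0 counts in each NC library and 71, 93 and 50 in LINC00862. APOA2 and GPC3, which were among the listed markers not tested, were at 0 in each NC library and near 0 in LINC00862, with 0, 0 and 3 counts and 7, 6 and 4 counts. The 2 markers that were lower were SERPINA1, with 363, 393 and 501 counts in NC and 29, 48 and 24 in LINC00862, and AFP, with 14, 24 and 30 counts in NC and 0 in each LINC00862 library. Each group has its own cells, so the overexpression and any other difference between these cells cannot be told apart, and in bulk RNA fewer cells that express a gene and less RNA per cell cannot be told apart either.

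Of the 9 EMT transcription factors, 6 were lower in LINC00862 (TWIST1, TWIST2, SNAI2, ZEB2, ZEB1 and TCF4), 1 was higher (PRRX1), and SNAI1 and SNAI3 did not pass the test. Set against the 29.8% of all tested genes that were lower, 6 of 9 were lower here, and their median log2 fold change was -1.46 against 0.11 for all tested genes. The summed FPKM of the 9 genes was 17.4, 17.1 and 17.6 in the NC libraries and 2.21, 1.72 and 2.61 in those of LINC00862. The NC sums were close to each other and far above each LINC00862 sum. TWIST1 and TWIST2 together made up 51.2% to 64.5% of the sum in NC and 0% to 5.04% in LINC00862.

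**Figure D1:**
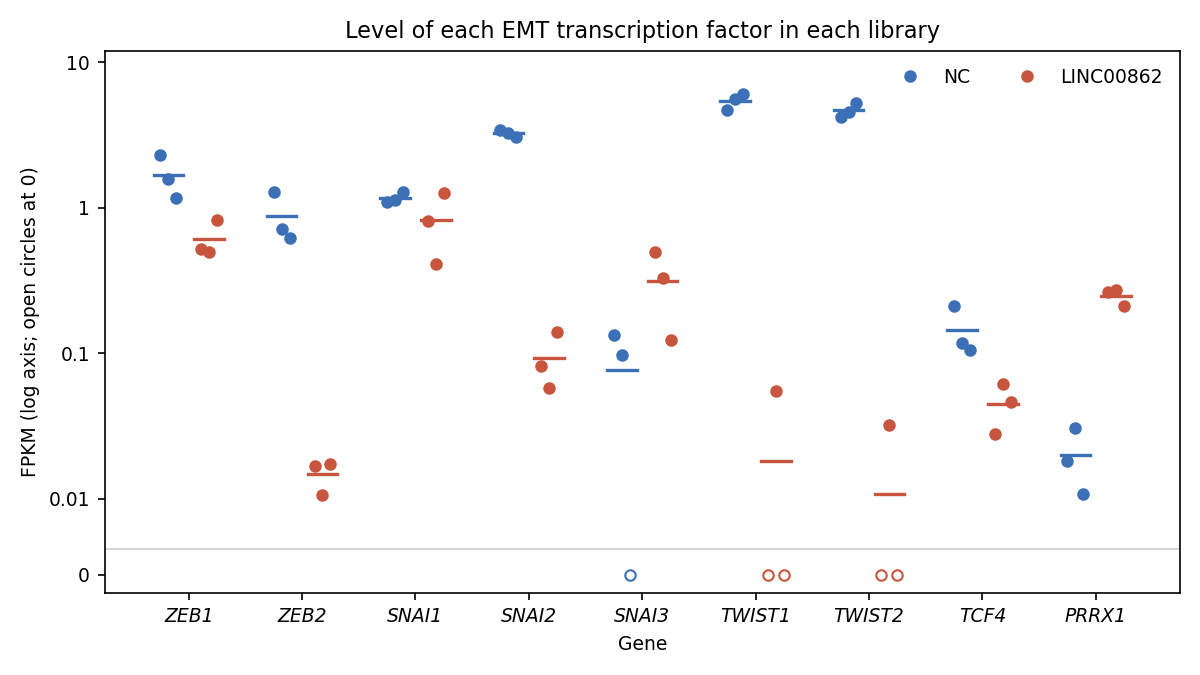
FPKM of each EMT transcription factor in each of the 3 NC (blue) and 3 LINC00862 (red) libraries, on a log axis with open circles for values of 0; horizontal lines are group means. The groups do not overlap for ZEB1, ZEB2, SNAI2, TWIST1, TWIST2, TCF4 and PRRX1, and they overlap for SNAI1 and SNAI3. Of all tested genes, 71.1% had no overlap.

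The TWIST genes encode bHLH factors of mesoderm and neural crest that drive EMT in carcinoma, and they were the highest of the 9 in NC on the FPKM scale. TWIST1 (ENSG00000122691, chromosome 7, minus strand, 19020991 to 19117118 in the table's hg38 coordinates) had 627, 732 and 806 counts in the NC libraries and 0, 8 and 0 counts in those of LINC00862. The groups were far apart, and in LINC00862 only library 2 held any count. FPKM was 5.46 ± 0.670 (SD, n = 3) in NC and 0.0182 ± 0.0316 (SD, n = 3) in LINC00862, a log2 fold change of -7.93 (SE 0.78, edgeR adjusted p = 2.5e-05). The ratio of the summed counts, scaled by library totals adjusted with edgeR's TMM factors, was 253. Its exact 95% interval of 128 to 588 covers counting error only. Without LINC00862 replicate 2, no count was left in that group and the fitted value was -12.5, which depends on the prior count.

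TWIST2, the paralog of TWIST1, gave the same picture at a separate locus (ENSG00000233608, chromosome 2, plus strand, 238848032 to 238910534). Its counts were 518, 560 and 660 in the NC libraries and 0, 4 and 0 in the LINC00862 libraries. Again library 2 was the only LINC00862 library with counts, and no library came near the NC range. The log2 fold change was -8.55 (SE 0.69, edgeR adjusted p = 7.52e-06). FPKM fell from 4.68 ± 0.559 to 0.0107 ± 0.0185 (SD, n = 3 each), and without LINC00862 replicate 2 the fitted value was -12.2. Counts in library 2 alone were not the rule for genes near 0 in that group, since of 25 genes with at least 500 counts in each NC library and fewer than 10 in each LINC00862 library, 13, 12 and 12 had counts in LINC00862 libraries 1, 2 and 3.

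By the similarity of depth-scaled log2 counts over the 6 libraries, TWIST2 was the member closest to TWIST1 (Pearson r = 0.998, as a description). The 5 genes most like TWIST1 were AC233280, IRX1, AC015712, AC124067 and EFNB3, with r of 0.9985 or more, and 124 of 20740 genes exceeded 0.99. IRX1, a homeobox gene, had 362, 342 and 392 counts in NC and 0, 6 and 0 in LINC00862. EFNB3, an ephrin ligand, had 1506, 1100 and 1325 counts in NC and 0, 8 and 0 in LINC00862. Each of the 5 had counts in LINC00862 library 2 only, as TWIST1 did, so the likeness rests on the gap between the groups and on that library.

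SNAI2 (Slug, ENSG00000019549) is a zinc finger repressor of CDH1. It had 746, 699 and 672 counts in the NC libraries and 21, 13 and 32 in those of LINC00862. The NC values lay close together, and each LINC00862 library kept some counts. FPKM was 3.25 ± 0.181 (SD, n = 3) in NC and 0.0929 ± 0.0422 (SD, n = 3) in LINC00862, with a log2 fold change of -4.88 (SE 0.38, edgeR adjusted p = 5.88e-06).

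SNAI1 (Snail, ENSG00000124216, chromosome 20, plus strand, 49982980 to 49988886), the founding repressor of CDH1 in this family, did not differ beyond the spread. Its counts were 124, 127 and 146 in NC and 106, 47 and 144 in LINC00862. Library 2 of LINC00862 was low, while library 3 lay within the NC range. FPKM was 1.17 ± 0.0939 in NC and 0.825 ± 0.425 in LINC00862 (SD, n = 3 each), with a log2 fold change of -0.30 (SE 0.44, edgeR adjusted p = 0.571, and an exact permutation p of 0.3). Without LINC00862 replicate 2 the value was 0.04.

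SNAI3, the least studied Snail gene (ENSG00000185669, chromosome 16, minus strand, 88677688 to 88686507), was low in both groups. It had 16, 12 and 0 counts in NC and 66, 38 and 15 in LINC00862. The lowest LINC00862 library fell inside the NC range on the FPKM scale, and the log2 fold change of 2.14 (SE 0.95) did not pass (edgeR adjusted p = 0.0763). It passed with limma-trend on log2(FPKM + 1), at 0.28 (adjusted p = 0.0462), and on log2(FPKM + 0.1), at 1.20 (adjusted p = 0.0381). SNAI3-AS1 overlaps it on the opposite strand, with 53, 101 and 95 counts in NC and 233, 95 and 158 in LINC00862 (log2 fold change 1.02, edgeR adjusted p = 0.0591). SNAI3-AS1 passed with DESeq2 (1.08, adjusted p = 0.0252), with upper quartile scaling (1.23, edgeR adjusted p = 0.0323) and without LINC00862 replicate 2 (1.29, edgeR adjusted p = 0.0319). Strand was marked in the library preparation, but the strand setting of the counting is not given in the sources used here, so reads of overlapping genes cannot be told apart.

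Within the Snail family the order was turned over. The ratio of SNAI2 to SNAI1 FPKM was 3.12, 2.88 and 2.40 in NC libraries and 0.101, 0.140 and 0.111 in LINC00862 libraries. SNAI2 was the more abundant in each NC library and SNAI1 in each LINC00862 library. The log2 ratio fell by 4.58 between the groups, with an exact two-sided permutation p of 0.1, the smallest p that 3 libraries against 3 allow.

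The ZEB genes encode large zinc finger repressors. ZEB2 (ENSG00000169554, chromosome 2, minus strand, 144364364 to 144520400) had 2239, 1222 and 1075 counts in the NC libraries and 35, 19 and 31 in the LINC00862 libraries. NC library 1 stood above the other two, yet the lowest NC library was far above each LINC00862 library. FPKM was 0.874 ± 0.365 in NC and 0.0149 ± 0.00376 in LINC00862 (SD, n = 3 each), with a log2 fold change of -5.61 (SE 0.36, edgeR adjusted p = 1.85e-06). GTDC1 is the nearest gene at lower coordinates, 31830 base pairs from ZEB2 on the side where the ZEB2 transcript ends. It had 750, 601 and 579 counts in NC and 735, 607 and 633 in LINC00862, with a log2 fold change of 0.14 (edgeR adjusted p = 0.53). ZEB2-AS1, which overlaps ZEB2 on the opposite strand, had 2, 0 and 3 counts in NC and 0 in each LINC00862 library.

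ZEB1 (ENSG00000148516, chromosome 10, plus strand, 31318495 to 31529813) was lowered much less. Its counts were 1328, 894 and 673 in NC and 346, 285 and 475 in LINC00862. The groups did not overlap, though NC library 3 and LINC00862 library 3 were the nearest to each other. FPKM was 1.69 ± 0.583 in NC and 0.611 ± 0.178 in LINC00862 (SD, n = 3 each), and the log2 fold change was -1.25 (SE 0.30, edgeR adjusted p = 0.00575). It did not pass a test against a fold change of 2 (edgeR adjusted p = 0.178). The pseudogene SPTLC1P1 lies within ZEB1 on the same strand, with 162 counts in NC library 1 and 17 to 39 in the other libraries, so some of these reads may be shared with ZEB1.

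The difference between the paralogs held within each library. The ratio of ZEB1 to ZEB2 FPKM was 1.79, 2.21 and 1.89 in NC and 30.8, 47.4 and 47.4 in LINC00862. On the FPKM scale ZEB1 was thus the higher of the pair throughout, by a far wider margin in LINC00862. By counts, which are not divided by length, ZEB2 was the higher in each NC library and ZEB1 in each LINC00862 library. The order of the pair in NC therefore depends on the lengths that FPKM uses. The log2 ratio was 0.97 ± 0.157 in NC and 5.36 ± 0.358 in LINC00862 (SD, n = 3 each, exact permutation p = 0.1).

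ZEB1-AS1, a long non-coding RNA whose gene lies head to head with ZEB1 on the opposite strand (chromosome 10, 31206278 to 31320447), moved the other way. It had 166, 153 and 151 counts in NC and 747, 562 and 636 in LINC00862. NC libraries were alike and each LINC00862 library was above them, with a log2 fold change of 2.14 (SE 0.22, edgeR adjusted p = 2.92e-05). RefSeq places a start of ZEB1-AS1 121 bases before one ZEB1 start and another 107 bases before a further ZEB1 start. The ratio of ZEB1-AS1 to ZEB1 FPKM was 0.280, 0.383 and 0.496 in NC and 4.87, 4.41 and 3.00 in LINC00862, so ZEB1 was the higher of the pair in each NC library and ZEB1-AS1 in each LINC00862 library (exact permutation p = 0.1 for the log2 ratio). The overlap of the genes limits both values, as for SNAI3.

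**Figure D2:**
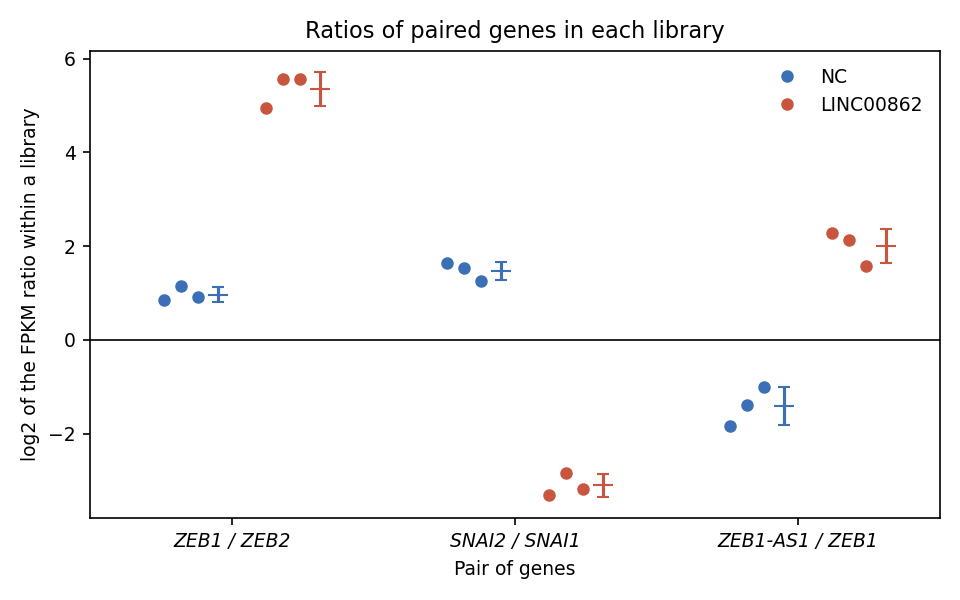
The log2 of the FPKM ratio of ZEB1 to ZEB2, SNAI2 to SNAI1 and ZEB1-AS1 to ZEB1 in each NC (blue) and LINC00862 (red) library, with the mean ± SD of the 3 libraries beside the points. The groups do not overlap in any of the 3 ratios, and SNAI2/SNAI1 and ZEB1-AS1/ZEB1 lie on opposite sides of 0 in the groups.

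TCF4 (also called E2-2, ENSG00000196628, chromosome 18, minus strand, 55222185 to 55664787) is a bHLH E protein and is not the Wnt effector TCF7L2, which shares its older name. Its counts were 413, 225 and 207 in NC and 63, 121 and 94 in LINC00862. NC library 1 was again the highest, and the groups did not overlap. FPKM was 0.144 ± 0.0582 in NC and 0.0450 ± 0.0168 in LINC00862 (SD, n = 3 each), with a log2 fold change of -1.46 (SE 0.38, edgeR adjusted p = 0.00837). Against a fold change of 2 it did not pass (edgeR adjusted p = 0.105). AC022031, on the opposite strand, had 0 counts in each NC library and 21, 30 and 25 in LINC00862.

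PRRX1 (ENSG00000116132, chromosome 1, plus strand, 170662728 to 170739421), a homeobox factor of mesenchyme linked to EMT, was the only one of the 9 genes to pass the test in the upward direction, which 34.4% of all tested genes did. It had 10, 19 and 7 counts in NC and 166, 150 and 118 in LINC00862. Each LINC00862 library was above each NC library. FPKM rose from 0.0199 ± 0.00999 to 0.248 ± 0.0322 (SD, n = 3 each), with a log2 fold change of 3.66 (SE 0.46, edgeR adjusted p = 0.000124). On the FPKM scale its level in LINC00862 lay above 21.6% of the tested genes, against 70.9% for TWIST1 in NC.

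**Figure D3:**
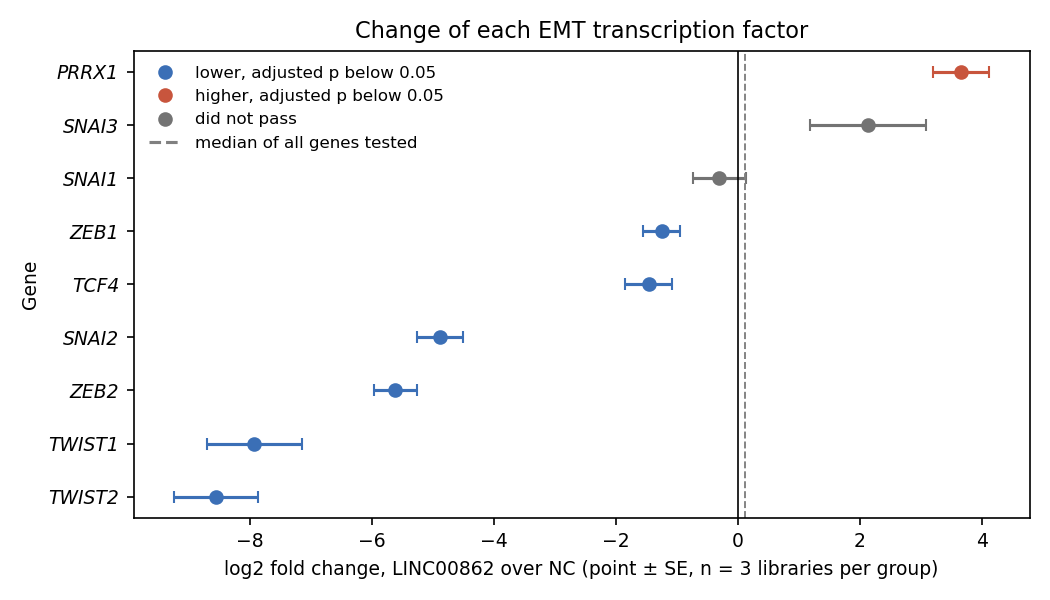
The log2 fold change of each EMT transcription factor, LINC00862 over NC, with its SE (n = 3 libraries per group, edgeR); colours mark the 6 genes lower and the 1 higher at an adjusted p under 0.05, and the dashed line is the median of all tested genes, 0.11. TWIST2 and TWIST1 lie farthest to the left and PRRX1 farthest to the right.

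By mean FPKM the order in NC was TWIST1, TWIST2, SNAI2, ZEB1, SNAI1, ZEB2, TCF4, SNAI3 and PRRX1. In LINC00862 it was SNAI1, ZEB1, SNAI3, PRRX1, SNAI2, TCF4, TWIST1, ZEB2 and TWIST2. Both orders depend on the lengths by which FPKM divides. Summed counts in NC were highest for ZEB2, at 4536 against 2165 for TWIST1. Among neighbours in the NC order, the ranges of the libraries were apart for TWIST2 and SNAI2, SNAI2 and ZEB1, and ZEB2 and TCF4, and the other pairs overlapped. In the LINC00862 order they were apart for ZEB1 and SNAI3 and for PRRX1 and SNAI2, and the rest overlapped. SNAI1 took 6.31% to 7.26% of the summed FPKM of the 9 genes in NC and 23.8% to 48.2% in LINC00862.

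The neighbours of the 9 genes did not move as one. At TWIST1, AC003986 on the opposite strand had 51, 30 and 42 counts in NC and 0 in each LINC00862 library, the direction of TWIST1. HDAC9, a histone deacetylase 18575 base pairs from TWIST1, had 545, 85 and 188 counts in NC and 775, 634 and 570 in LINC00862, with a log2 fold change of 1.41 (SE 0.52, edgeR adjusted p = 0.0385). CCDC68, the nearest gene on the side where the TCF4 transcript ends, was also higher (log2 fold change 1.52, edgeR adjusted p = 0.00119). At PRRX1, Z97200 on the same strand had 0 counts in each NC library and 13, 12 and 4 in LINC00862. MVD and RNF166, on either side of SNAI3, did not pass the test, with log2 fold changes of -0.55 and 0.26. TMEM189-UBE2V1, a readthrough gene after SNAI1, had 1341 counts in NC library 1 and 0 in each other library and was not tested. The other overlapping or nearest genes had at most 23 counts in any library.

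Among close paralogs of the 9 genes, 5 were tested, of which 2 were lower and 0 higher, against 29.8% and 34.4% of all tested genes. TCF3, which encodes the E proteins E12 and E47, had 7269, 6085 and 6752 counts in NC and 2550, 2178 and 2032 in LINC00862, with a log2 fold change of -1.48 (SE 0.13, edgeR adjusted p = 1.15e-05). SHOX2, a homeobox gene, was also lower (-2.55). TCF12, another E protein, gave 0.09 (edgeR adjusted p = 0.772), and its sign depended on the scaling and on the libraries kept. Without NC replicate 1 it was 0.45 (edgeR adjusted p = 0.0129).

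The ID proteins, which lack a DNA-binding region and sequester E proteins, went in opposite directions within the family. ID2 had 345, 280 and 305 counts in NC and 3768, 3364 and 4153 in LINC00862, with a log2 fold change of 3.71 (SE 0.18, edgeR adjusted p = 4.32e-07). ID4 rose from 6, 8 and 4 counts to 289, 281 and 371, a log2 fold change of 5.79. For both genes each LINC00862 library was far above each NC library. ID3 had 4318, 5115 and 5423 counts in NC and 1712, 1605 and 1500 in LINC00862 (log2 fold change -1.54), and ID1 had 2088, 2929 and 3590 in NC and 1787, 1538 and 1844 in LINC00862 (-0.65, edgeR adjusted p = 0.0395). The call of ID1 was lost in 8 of 15 alternatives, among them upper quartile scaling (edgeR adjusted p = 0.159).

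Of 14 other EMT-linked transcription factors tested, 4 were higher and 6 lower in LINC00862, with a median log2 fold change of -0.30. These shares are near those of all tested genes (34.4% higher and 29.8% lower), so the counts do not set these factors apart. FOXQ1, a forkhead factor, had 3, 0 and 0 counts in NC and 1225, 1183 and 1409 in LINC00862 (log2 fold change 10.26, SE 0.56, edgeR adjusted p = 6.89e-07). KLF8, a Krüppel-like repressor of CDH1, went from 0, 4 and 0 counts to 135, 89 and 159. FOXC2, a forkhead factor of mesenchyme, went the other way, from 291, 211 and 214 counts to 0, 4 and 3 (-6.48), and YBX1, a nucleic acid-binding protein that supports Snail translation, was lower by a smaller amount (-1.93).

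The corepressors through which ZEB and Snail proteins act were lower or did not pass. Of 16 tested, 12 were lower and 0 higher, with a median log2 fold change of -0.72. Over all tested genes, 29.8% were lower and 34.4% higher. HDAC2, a histone deacetylase, had 11740, 12135 and 11364 counts in NC and 1711, 1458 and 1413 in LINC00862 (-2.85, SE 0.14, edgeR adjusted p = 3.94e-07). HDAC1 (-1.85) and the LIM proteins AJUBA (-1.95) and WTIP (-3.67), which bridge Snail to its partners, were also lower. The 4 that did not pass, named after their values were seen, were CTBP1, SUZ12, BMI1 and a further LIM protein gene, LIMD1 (-0.16). Against a fold change of 2, 6 of the 16 passed. Of 16 genes for the turnover of the EMT factors, 4 were higher and 6 lower, again near the 34.4% and 29.8% of all tested genes. The deubiquitinase gene USP51 (4.52) and the kinase genes PRKD1 (2.53) and PAK1 (1.79) were higher, and the phosphatase subunit gene PPP2R3A (-3.20) and the ubiquitin ligase gene FBXL5 (-0.64) were lower.

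Transforming growth factor beta (TGF-beta) is the best known inducer of these factors. Of 10 tested genes of its arm, 7 were lower and 0 higher, with a median log2 fold change of -1.27. The shares of all tested genes were 29.8% lower and 34.4% higher. TGFB1 had 3169, 3042 and 4350 counts in NC and 61, 77 and 71 in LINC00862 (log2 fold change -5.56, SE 0.26, edgeR adjusted p = 2.98e-07). TGFB2 had 5660, 3502 and 2411 counts in NC and 55, 62 and 50 in LINC00862 (-5.99). The coreceptor TGFBR3 (-4.97) and the signal transducer SMAD3 (-0.93) were lower as well. SMAD3 did not pass against a fold change of 2 (edgeR adjusted p = 0.661). The receptors TGFBR1 (-1.61) and TGFBR2 (-1.91) and the effector SMAD4 (-0.88), named after their values were seen, were lower too. Ligands, receptors and effectors were thus among the genes that fell. TGFB3, SMAD2 and SMAD7, also named after their values were seen, did not pass.

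Epithelial genes that ZEB and Snail proteins are known to repress were mostly higher in LINC00862. Of 17 tested, 13 were higher and 3 lower, with a median log2 fold change of 3.58. Over all tested genes, 34.4% were higher and 29.8% lower. CDH1, which encodes E-cadherin, had 114, 110 and 96 counts in NC and 11063, 9412 and 8144 in LINC00862. FPKM was 0.261 ± 0.0234 in NC and 22.3 ± 2.10 in LINC00862 (SD, n = 3 each), and the log2 fold change was 6.57 (SE 0.17, edgeR adjusted p = 2.63e-08). The adhesion molecule EPCAM (8.34), the splicing regulator ESRP1 (8.55), the polarity gene CRB3 (8.09) and the tight junction gene CLDN7 (7.68) were higher with no overlap between the groups. The 3 that were lower, named after their values were seen, were CLDN3, PKP2 and OCLN.

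Against 34.4% of all tested genes, transcription factors that hold the epithelial state against EMT were higher in each of 13 cases tested. Their median log2 fold change was 5.40, or 4.97 with genes at 0 in NC set to their lower bound. GRHL2 had 11, 4 and 0 counts in NC and 1301, 1271 and 972 in LINC00862, and FOXA2 had 0, 4 and 0 in NC and 1261, 891 and 1249 in LINC00862. OVOL2, a repressor of ZEB1, had 0 counts in each NC library and 47, 54 and 47 in LINC00862, which is at least 52.7-fold higher against a floor of 3 counts over the group. ELF3 (5.40) and FOXA1 (2.25), more abundant members of the list, rose by less than GRHL2 (7.95). Mesenchymal genes induced during EMT showed the opposite, with 14 of 20 lower and 2 higher and a median of -3.23. The shares of all tested genes were 29.8% lower and 34.4% higher. VIM, the intermediate filament gene vimentin, had 164852, 193003 and 194873 counts in NC and 1449, 1305 and 1339 in LINC00862 (-6.99, SE 0.22, edgeR adjusted p = 4.69e-08). CDH2, which encodes N-cadherin (-7.43), and SPARC (-7.12) were lower, and POSTN had 126, 88 and 152 counts in NC and 0 in each LINC00862 library, at least 114-fold lower. CDH11 and COL1A1, named after their values were seen, were the 2 that rose.

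MIR200CHG, the host transcript of miR-200c and miR-141, had 0 counts in each NC library and 73, 79 and 53 in the LINC00862 libraries. This is at least 73.0-fold higher against a floor of 3 counts over the group, and no library of one group came near the other. MIR34AHG, the host of miR-34a, had 62, 132 and 96 counts in NC and 1063, 858 and 1113 in LINC00862 (log2 fold change 3.47, SE 0.34, edgeR adjusted p = 2.54e-05). The match to the miR-34a-5p seed, CACTGCC, stood once in the longest 3′ UTR of SNAI1, of SNAI3 and of ZEB1, and in 16.4% of the 16735 genes searched. MIR205HG had 4, 0 and 0 counts in LINC00862 and 0 in NC. These are polyadenylated host RNAs, and the mature microRNAs were not measured in these libraries.

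The letters before the start of MIR200CHG are printed because ZEB proteins are known to repress this locus through E-boxes. The 250 bases lie at chr12:6962995-6963244 on the plus strand (RefSeq, GRCh38.p14), and the capitals mark the E-box searched for, CAGGTG read on either strand, so also CACCTG.
MIR200CHG: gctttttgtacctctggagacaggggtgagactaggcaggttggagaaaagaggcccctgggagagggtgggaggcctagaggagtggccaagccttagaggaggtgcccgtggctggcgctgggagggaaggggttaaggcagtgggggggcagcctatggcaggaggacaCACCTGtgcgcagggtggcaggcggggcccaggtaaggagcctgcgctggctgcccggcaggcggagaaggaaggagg
The window holds 1 match, which starts 78 bases before the RefSeq start. Of 35116 such windows of all genes, 17.5% held at least 1 match, and 61.8% held the wider motif CANNTG, of which this E-box is one form. Of the 9 EMT transcription factors, 5 had a window in the table, and ZEB1 was the only one of these with a match, in 2 of its 7 windows. Among genes tested, 6 of 10 repressed epithelial targets with a window held a match, 4 of 9 epithelial antagonists and 2 of 12 mesenchymal targets, against 20.6% of 27305 genes. Genes differ in their number of windows, and a match is a description of the letters, not a site shown to be bound. The repressed targets were listed as genes that the E-box-binding ZEB and Snail proteins are known to repress, so their share is no test of that repression.

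Markers of other cell types were read in the same libraries. Of 10 fibroblast markers, 3 were higher and 3 lower, and their summed FPKM was 45.8 to 56.8 in NC and 12.1 to 16.0 in LINC00862. The counts called are near the shares of all tested genes, 34.4% higher and 29.8% lower. THY1 (-8.50) and PDGFRB (-5.86) were lower and COL1A1 (2.32) higher, and none of the 10 was at 0 throughout a group. Of 6 tested endothelial markers, CDH5 was higher (3.63) and the others did not pass, VWF among them (-0.08, with a sign that changed under upper quartile scaling), with a summed FPKM over the 8 listed of 1.29 to 1.85 in NC and 4.51 to 6.01 in LINC00862. Of 8 leukocyte markers, CD68 (2.91) and CD14 (1.88) were higher and the other 6 did not pass, with a summed FPKM of 3.76 to 4.43 in NC and 9.89 to 15.8 in LINC00862. In each library the 10 genes with the highest counts held 8.42% to 11.7% of the counts in NC and 19.4% to 29.2% in LINC00862. The part of these values in the results for the 9 genes was not tested.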

How the data were processed

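The authors deposited 1 table of 3 NC and 3 LINC00862 libraries with raw counts per gene and FPKM. The submitters' processing notes name cutadapt 1.9, HISAT2 2.0.4, UMI-tools, StringTie 1.3.4d, DESeq2, edgeR and hg38, with no role given. Library totals were 58241123 to 68229070 counts. Counts were tested with edgeR 4.0.16 in R 4.3.3 (filterByExpr, TMM, quasi-likelihood test, Benjamini-Hochberg adjustment over all 20741 genes tested, false discovery rate 0.05). The step was tried on simulated data in which far fewer genes changed, so that trial does not cover changes as wide as these. FPKM was compared by exact permutation tests. Intervals and floors (3 counts) cover counting error only.

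The 9 members and the gene lists were chosen with earlier results of these data known. All 9 members are described, with their overlapping and nearest genes, the 5 genes most like TWIST1, and per list the 3 largest changes without overlap and the 2 highest levels; CDH1, VIM, MIR200CHG and the ID genes are always named. Listed genes not in the table were not analysed here, and 1 gene that this rule names is not reported here.

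Alternatives were DESeq2 1.42.0, other scalings, no filter, limma-trend (3.58.1) on log2(FPKM + 1 or 0.1), a replicate block, edgeR's test against a 2-fold change, a stricter threshold (0.01) and leaving out each library. Sequences came from RefSeq (GRCh38.p14) and GENCODE 29. The table coordinates of each of the 9 genes differ at an end from those of GENCODE 29.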

Additional observations from a re-analysis of the deposited data

How the results depend on the processing

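The 9 EMT transcription factors kept their direction and side of the threshold in 130 of 135 values over 15 alternatives. ZEB1 (-1.25, adjusted p = 0.178) and TCF4 (-1.46, adjusted p = 0.105) did not pass edgeR's test against a fold change of 2, SNAI3 passed with limma-trend at a pseudocount of 1 (0.28) or 0.1 (1.20), giving 2 members called higher, and SNAI1 turned to 0.039 without LINC00862 replicate 2. The cause was not tested. Against a fold change of 2, 8010 genes were called, 3204 of them lower, with 6 corepressors, 6 turnover genes and 3 fibroblast markers, since this test asks for more. Across the fits without one library, 12063 to 14285 genes were called. Log2 fold changes then ranged from -1.58 to -1.01 for ZEB1, -5.78 to -5.29 for ZEB2, -5.35 to -4.61 for SNAI2, -12.5 to -7.30 for TWIST1, -12.2 to -7.94 for TWIST2, -1.69 to -1.15 for TCF4, 3.41 to 4.19 for PRRX1, -0.80 to 0.039 for SNAI1 and 1.57 to 2.69 for SNAI3.

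Of 55 other named genes, 802 of 825 values were unchanged in this sense, 10 lost and 4 gained a call and 9 changed sign. TCF12 was reversed with library size only (-0.094), with limma-trend at a pseudocount of 1 (-0.033) or 0.1 (-0.029), and without NC replicate 2 (-0.039) or 3 (-0.087), and it ranged up to 0.45 without NC replicate 1. VWF was reversed with upper quartile scaling (0.13) and without LINC00862 replicate 1 (0.11), LINC00862 replicate 3 (0.26) or NC replicate 1 (0.22), and was -0.79 without LINC00862 replicate 2. Scaling moved the median of all genes from 0.11 to 0.16 (DESeq2), 0.32 (upper quartile) or -0.05 (library size only). Of the genes called, 53.6% were higher, and 55.1%, 60.4% and 48.5% under these scalings.

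Libraries with the same number did not deviate together (correlations of -0.05, -0.03 and -0.01 across genes). The replicate block gave 12098 genes, and ZEB1 was at -1.27, TCF4 at -1.46 and TWIST1 at -8.13, with no call among the 9 genes changed. Folds on log2(FPKM + 1) understate low genes. TWIST1 and TWIST2 in LINC00862 rest on 8 and 4 counts, so the depth limits their folds.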
